A study of Homo sapiens with 16 samples.

Results

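The expression of 8 genes that glucocorticoids are widely known to induce was described across a pair of multiple myeloma cell lines. The genes were FKBP5, TSC22D3, DUSP1, ZBTB16, KLF9, SGK1, RASD1 and CXCR4, taken by symbol from a table of read counts that holds 23354 genes. All 8 were in the table and all 8 were among the 14215 genes that passed the filter on low counts. ZBTB16 reached the filter's level in both libraries of 3 of the 8 groups, and RASD1 in 7 of 8.

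MM1S and MM1R are sublines of one parental human myeloma line, labelled glucocorticoid sensitive and glucocorticoid resistant. Each was treated for 48 h with vehicle, with TAK-981 (TAK) at 0.1 μM, with dexamethasone (Dex) at 1 μM or with both agents at these doses (combo). TAK-981 inhibits the enzyme that activates SUMO, a small protein that is attached to many nuclear proteins, and Dex is a synthetic glucocorticoid. There were 2 libraries in each of 8 groups, 16 in all. Each line is a single established cell line, grown in medium with fetal bovine serum, and nothing in the labels says whether the 2 libraries of a group came from separate cultures, so p-values measure the spread between these samples, which may be technical.

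Total counts ran from 15707587 to 24796539 per library (median 20268927). All 9 plasma cell markers examined were at 1 CPM or more in every library (CPM, counts scaled to library size after TMM normalization), with JCHAIN the most abundant. Marker lists of 6 other cell types summed to at most 13.0 CPM in any library, the highest being erythroid (HBB) and endothelial (PECAM1) markers at up to 13.0 and 12.9 CPM, and their part in the results was not tested. In no group did the 2 libraries agree within sampling noise. Their chi-square per degree of freedom ran from 2.11 in combo-treated MM1R to 21.7 in TAK-treated MM1S, and was 19.5 in Dex-treated MM1S. The tests below share 1 fit over all groups, so they do not give these noisier MM1S groups a spread of their own. NR3C1, which encodes the glucocorticoid receptor, averaged 280 CPM in vehicle-treated MM1S cells and 18.9 CPM in vehicle-treated MM1R cells, both n = 2. Because these are bulk samples, fewer expressing cells and less RNA per cell cannot be told apart.

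A glucocorticoid that enters a cell binds its receptor, which is held by HSP90 and co-chaperones. The bound receptor moves to the nucleus and activates genes through glucocorticoid response elements, often in enhancers far from the gene. FKBP5 encodes a co-chaperone that lowers the receptor's affinity for hormone. TSC22D3 encodes GILZ, an inhibitor of NF-κB and AP-1. DUSP1 encodes a phosphatase of MAP kinases. ZBTB16 and KLF9 encode zinc finger transcription factors, SGK1 a serine/threonine kinase, RASD1 a Ras-related small G protein and CXCR4 the receptor of the chemokine CXCL12. Dex is used to treat myeloma because it kills sensitive plasma cells through this receptor.

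The start sites of the genes were searched for the element's letters. RefSeq (GRCh38.p14) gave 15 windows for 7 of the 8 genes, each of 300 bases (250 before and 50 after a start site). No window was found for ZBTB16. The full element (AGAACA, any 3 bases, TGTTCT) was in 0 of the 15 windows and in 1 of 35116 windows over all genes (0.00285%). A relaxed form (GNACA, any 3 bases, TGTNC) was in 0 of 15 and in 0.39% of all windows. A half-site (AGAACA, on either strand) was in 2 of 15 and in 14.8% of all windows. DUSP1 alone of the 7 genes held a cAMP response element (TGACGTCA), which 1.85% of all windows hold. The half-site letters are part of the full element, the full element matches the relaxed form, and full elements read the same on both strands. These matches describe the letters in these windows and say nothing of binding elsewhere.

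The 3 matched stretches of 100 bases are shown because they hold the letters found, in capitals, in 2 genes that differed widely in their Dex response (FKBP5 and SGK1) and in the gene with the weakest significant response (DUSP1). All lie on the minus strand and are written 5′ to 3′. The FKBP5 stretch is chr6:35728564-35728663, with a half-site that starts at base 1 of the transcript. The SGK1 stretch is chr6:134177842-134177941, with a half-site from base 6. The DUSP1 stretch is chr5:172771267-172771366, with the cAMP response element from 125 bases before the start.
FKBP5: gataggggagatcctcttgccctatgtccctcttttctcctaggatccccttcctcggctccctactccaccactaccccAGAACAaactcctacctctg
SGK1: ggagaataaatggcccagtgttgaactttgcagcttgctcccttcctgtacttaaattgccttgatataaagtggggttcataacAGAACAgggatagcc
DUSP1: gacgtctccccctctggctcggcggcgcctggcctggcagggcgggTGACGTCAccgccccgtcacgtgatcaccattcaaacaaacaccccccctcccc

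In the count table's own build, hg19, the genes lie on 7 chromosomes. FKBP5 is on chr6:35541362-35696397, SGK1 on chr6:134490384-134639196, DUSP1 on chr5:172195093-172198203, KLF9 on chr9:72999513-73029573, RASD1 on chr17:17397753-17399709, CXCR4 on chr2:136871919-136875725 and TSC22D3 on chrX:106956452-107019202, all on the minus strand. ZBTB16 is on chr11:113930431-114121397, on the plus strand. FKBP5 overlaps the table entries LOC285847 (at most 35 counts) and MIR5690 (at most 162 counts) on its own strand, while FKBP5 held 777 to 56503 counts.

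The first question was which of the genes Dex induced in the sensitive line. Of the 8 genes, 7 were significantly higher in Dex-treated than in vehicle-treated MM1S cells at 48 h, and SGK1 was not. Every comparison used the F test of edgeR, fitted over the 16 libraries together, and a gene was called at a Benjamini-Hochberg adjusted p under 0.05 among 14215. By the same test 42.3% of all genes were called in this comparison and 20.8% were called higher. The median log2 fold change was 2.70 over the 8 genes and 0.01 over all genes tested. All 7 calls held with each library left out in turn.

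FKBP5, the co-chaperone, was at 68.6 and 68.9 CPM with vehicle and at 1724 and 1601 CPM with Dex. The groups lay far apart, and the log2 fold change was 4.60 (SE 0.0718, adjusted p = 1.22e-18), a 24.2-fold rise. TSC22D3 was at 38.3 and 44.4 CPM with vehicle and at 501 and 584 CPM with Dex, a log2 fold change of 3.71 (SE 0.0938, adjusted p = 1.38e-15). DUSP1, the MAP kinase phosphatase, was at 47.1 and 56.9 CPM with vehicle and at 68.3 and 76.4 CPM with Dex. Its groups did not overlap either, but its rise was the smallest of the 7, with a log2 fold change of 0.48 (SE 0.0966, adjusted p = 0.000622).

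The transcription factor gene ZBTB16 went from 0.986 and 1.54 CPM with vehicle (21 and 30 counts) to 38.7 and 37.4 CPM with Dex (746 and 742 counts). Its log2 fold change of 4.92 (SE 0.153, adjusted p = 2.14e-14) was the 18th highest of the 14215 genes, and FKBP5 was 21st. KLF9 rose from 14.8 and 13.5 CPM to 50.3 and 53.9 CPM, a log2 fold change of 1.88 (SE 0.0822). RASD1 rose from 23 and 13 counts (1.08 and 0.666 CPM) to 81 and 80 counts (4.20 and 4.03 CPM), a log2 fold change of 2.21 (SE 0.307, adjusted p = 1.14e-05). It held the fewest counts of the 8 genes with vehicle, and its standard error was the largest of the 8. CXCR4 rose from 25.0 and 23.0 CPM to 222 and 215 CPM, a log2 fold change of 3.19 (SE 0.0723, adjusted p = 2.51e-16).

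SGK1, a kinase gene named as an early glucocorticoid target in many tissues, was at 84.7 and 75.9 CPM with vehicle and at 73.2 and 77.7 CPM with Dex. The groups overlapped. The log2 fold change was −0.09 with a 95% interval from −0.22 to 0.04 (edgeR adjusted p = 0.261), so a rise of the size seen for DUSP1 lies outside its interval. Scaled to the GAPDH count instead, SGK1 stood at 0.61 (adjusted p = 3.77e-06), which shifted the median gene to 0.71. GAPDH itself was at 1712 and 1616 CPM with vehicle and at 979 and 1075 CPM with Dex. Values with the GAPDH reference, here and below, therefore also carry the change of GAPDH between groups.

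**Figure D1:**
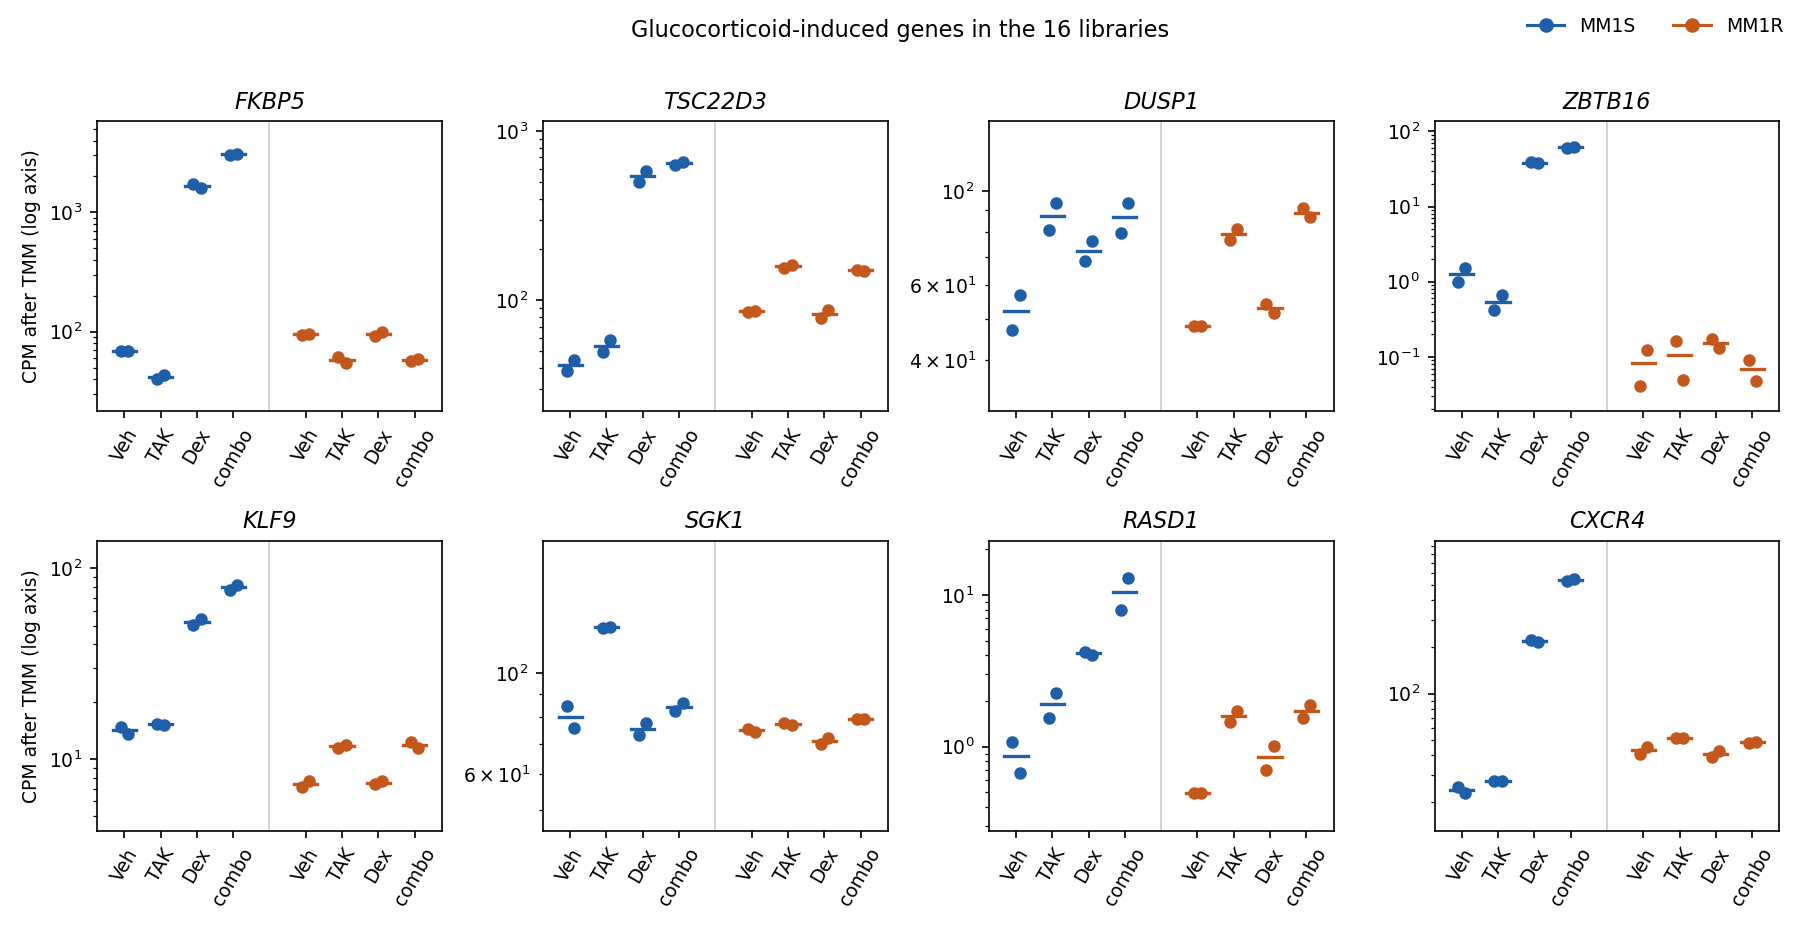
Level of each of the 8 genes in every library, in CPM after TMM normalization on a log axis that differs between panels, for MM1S (blue) and MM1R (orange) under vehicle, TAK-981 (TAK), Dex and combo. Points are libraries and bars are means of 2; in MM1S, FKBP5 runs from 40.3 to 3105 CPM, while in MM1R it stays between 54.9 and 98.9 CPM.

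In MM1R cells the same treatment gave no call. Dex changed 0 of the 8 genes and 0% of all genes tested by edgeR, while 395 genes and none of the 8 had an unadjusted p under 0.05. DESeq2 called 0 of the 8 and 0 of all genes, and edgeR without the filter called 30 of all genes and 0 of the 8. FKBP5 was at 93.0 and 96.4 CPM with vehicle and at 92.5 and 98.9 CPM with Dex, with a log2 fold change of 0.02 and a 95% interval from −0.12 to 0.15. TSC22D3 was at 85.1 and 86.8 CPM with vehicle and at 79.0 and 87.5 CPM with Dex, with an interval from −0.23 to 0.13. CXCR4 was at 40.8 and 45.5 CPM with vehicle and at 39.0 and 42.9 CPM with Dex, with an interval from −0.22 to 0.07. For these 3 genes the libraries of both groups overlapped.

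KLF9 was at 7.15 and 7.71 CPM with vehicle and at 7.43 and 7.64 CPM with Dex in MM1R, and its interval ran from −0.20 to 0.24. DUSP1 was at 48.0 and 48.1 CPM with vehicle and at 54.1 and 51.6 CPM with Dex, an interval from −0.07 to 0.34. SGK1 was at 75.6 and 74.5 CPM with vehicle and at 69.8 and 72.0 CPM with Dex, an interval from −0.21 to 0.05. RASD1 held 12 and 12 counts with vehicle and 16 and 23 with Dex, and its interval, from −0.17 to 1.72, leaves room for a 3-fold rise. ZBTB16 held 1 and 3 counts with vehicle and 4 and 3 with Dex in MM1R, at or near the floor of 3 counts per library, so no fold is given there.

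The difference in Dex response between the lines was tested by itself. Of the 8 genes, 5 had a Dex change that was significantly lower in MM1R as a signed value, against 28.1% of all genes called. Over all genes 1858 (13.1%) were called with a lower value in MM1R and 2135 with a higher one. A higher value can be a fall in MM1S that was weaker or absent in MM1R. The 13.1% is therefore not the share of genes with a smaller response there. The 5 include ZBTB16, which reached the filter's level in MM1S groups only and lay at 1 to 4 counts per library in MM1R. Its place in this count therefore rests on counts at or near the floor in MM1R and is not taken as support. The difference of log2 fold changes, MM1R minus MM1S, was −4.58 for FKBP5 (SE 0.0934, adjusted p = 1.48e-16), −3.76 for TSC22D3 (SE 0.125), −3.26 for CXCR4 (SE 0.0993) and −1.86 for KLF9 (SE 0.133). ZBTB16 was the fifth (adjusted p = 0.00612), and its call was lost without the second vehicle library of MM1R (adjusted p = 0.287), where it rests on very few reads. DUSP1 differed by −0.34 (SE 0.137, edgeR adjusted p = 0.0732) and RASD1 by −1.44 (SE 0.573, edgeR adjusted p = 0.0688). With all libraries kept, both were called without the filter (edgeR adjusted p = 0.014 and 0.0127), with a replicate term (0.00186 and 0.0305) and with the GAPDH reference. RASD1 was also called in a fit of the compared groups alone (0.0327). Neither was called with RLE scaling, library size only or DESeq2. Both were called without either TAK library of MM1S, DUSP1 at −0.34 (adjusted p = 0.0347 and 0.035) and RASD1 at −1.44 (adjusted p = 0.0496 and 0.049). DUSP1 was also called without the second vehicle (−0.48, adjusted p = 0.0224) or first Dex library of MM1S (−0.42, adjusted p = 0.0367), and RASD1 without either combo library of MM1S (−1.44, adjusted p = 0.0296 and 0.0302). SGK1 differed by 0.01 (95% interval −0.18 to 0.19), and by −0.65 (adjusted p = 0.000103) with the GAPDH reference.

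All of the genes but ZBTB16 held at least 12 counts in every MM1R library. Between the vehicle-treated lines 5 of the 8 genes differed significantly, 3 higher and 2 lower in MM1R (2 and 5 with the GAPDH reference), against 48.2% of all genes (3637 higher and 3213 lower). The 2 lower genes include ZBTB16, at 1 and 3 counts in vehicle-treated MM1R. TSC22D3 was higher in MM1R, at 85.1 and 86.8 CPM against 38.3 and 44.4 CPM in MM1S (log2 fold change 1.06, SE 0.0897, edgeR adjusted p = 3.28e-08). CXCR4 was higher in MM1R by 0.84 (SE 0.0730) and FKBP5 by 0.46 (SE 0.0651), though FKBP5 was at 0.20 (adjusted p = 0.0818) with the GAPDH reference, which shifted the median gene to −0.25. KLF9 was lower in MM1R by 0.93, at 7.15 and 7.71 CPM against 14.8 and 13.5 CPM. So 3 genes with clear Dex induction in MM1S had a higher starting level in the line where Dex changed none of them, and NR3C1 itself was lower there by a log2 fold change of −3.88 (SE 0.0834, adjusted p = 1.24e-16).

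ZBTB16 was the gene with the widest gap between the untreated lines. It held 21 and 30 counts in vehicle-treated MM1S and 1 and 3 counts in vehicle-treated MM1R. The ratio per normalized depth was 15.1, with an exact 95% interval from 5.57 to 57.7 that covers counting error only. DUSP1 (47.1 and 56.9 against 48.0 and 48.1 CPM) and SGK1 (84.7 and 75.9 against 75.6 and 74.5 CPM) did not differ significantly (edgeR adjusted p = 0.361 and 0.2). RASD1 was at 1.08 and 0.666 CPM in MM1S and 0.496 and 0.495 CPM in MM1R (edgeR adjusted p = 0.143).

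**Figure D2:**
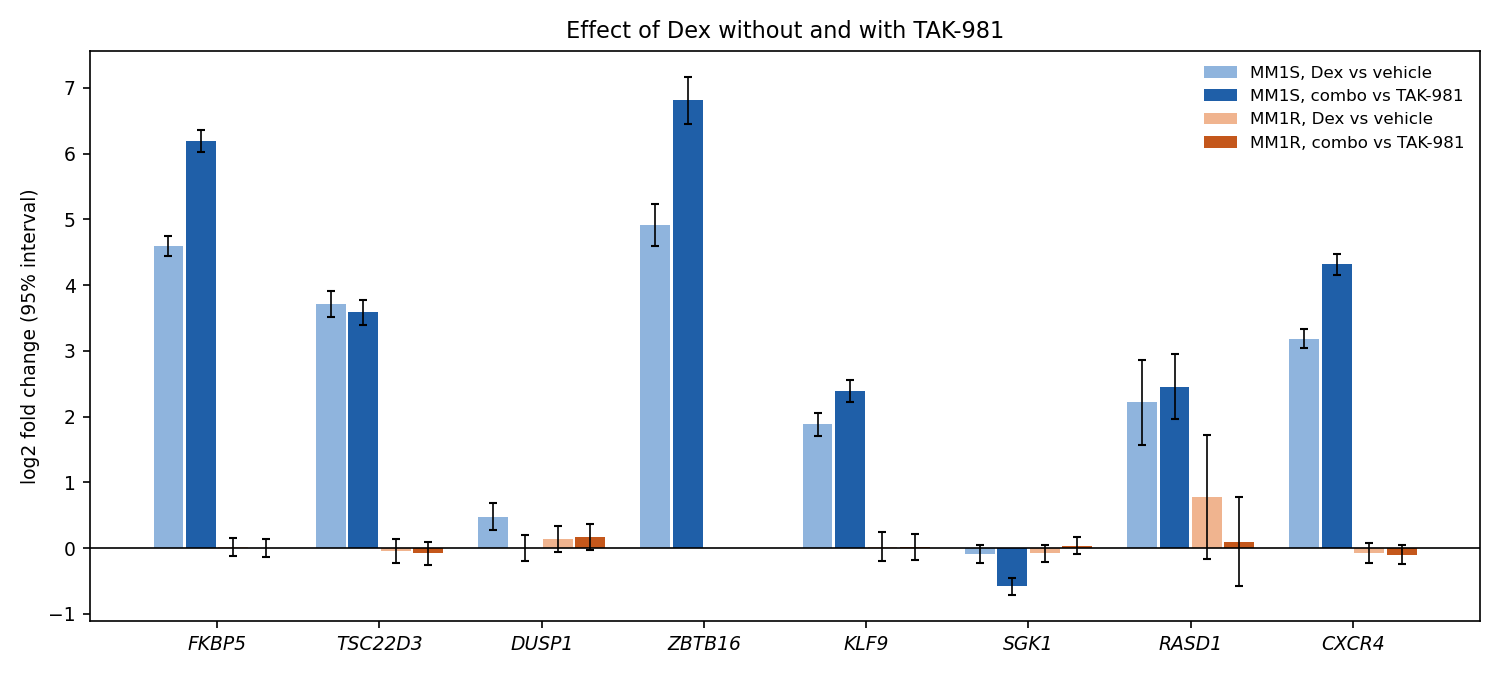
Log2 fold change of each gene with Dex, without TAK-981 (light) and with TAK-981 (dark), in MM1S (blue) and MM1R (orange); bars are edgeR estimates and lines their 95% intervals, and ZBTB16 in MM1R is not drawn because it lay at 1 to 4 counts per library. In MM1S the FKBP5 bar goes from 4.60 without TAK-981 to 6.19 with it, while every MM1R interval drawn crosses 0.

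The second question was whether SUMO inhibition altered the response to Dex. In MM1S cells, combo against TAK-981 alone gave 7 calls among the 8 genes, 6 higher and SGK1 lower (7 and 0 with the GAPDH reference), against 35.1% of all genes called and 14.5% called higher. FKBP5 was at 40.3 and 43.7 CPM with TAK-981 and at 3024 and 3105 CPM with combo, a 73.0-fold difference. The change with Dex thus differed with and without TAK-981, and the difference of the log2 fold changes was 1.59 (SE 0.0914, edgeR adjusted p = 5.71e-09). TAK-981 alone took FKBP5 from 68.6 and 68.9 to 40.3 and 43.7 CPM, a fall that was absent with the GAPDH reference (0.04, adjusted p = 0.687), and on top of Dex it took FKBP5 from 1724 and 1601 to 3024 and 3105 CPM.

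Of the 8 genes, 6 had a significant interaction of TAK-981 with Dex in MM1S, against 14.9% of all genes. The Dex log2 fold change was higher under TAK-981 for 4 of the 6 and lower for 2. Over all genes 777 were called with a higher value and 1348 with a lower one. These are signed differences, so a lower value can be a weaker rise or a stronger fall. ZBTB16 went from 21 and 30 counts to 8 and 13 with TAK-981 alone, a call that was lost with the GAPDH reference (−0.45, adjusted p = 0.241) and without single libraries named further on, and from 38.7 and 37.4 to 60.2 and 62.7 CPM when TAK-981 was added to Dex, an interaction of 1.89 (SE 0.344, adjusted p = 0.00118). CXCR4 was at 25.0 and 23.0 CPM with vehicle, 27.4 and 27.2 with TAK-981, 222 and 215 with Dex and 535 and 551 with combo, an interaction of 1.13 (SE 0.0987, adjusted p = 5.94e-07). KLF9 was at 15.3 and 15.1 CPM with TAK-981 and at 76.9 and 81.9 CPM with combo, an interaction of 0.50 (SE 0.116, adjusted p = 0.00718). Without the first vehicle library of MM1S the KLF9 interaction was 0.44 (adjusted p = 0.0589).

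SGK1 and DUSP1 went the other way. SGK1 was at 126 and 126 CPM with TAK-981 alone, its highest level in any group, and at 82.5 and 86.0 CPM with combo, so Dex lowered it by a log2 fold change of −0.58 (SE 0.0614, edgeR adjusted p = 5.02e-07) in the presence of TAK-981, a value that was 0.02 (adjusted p = 0.814) with the GAPDH reference, which shifted the median gene to 0.58. Its interaction was −0.49 (SE 0.0873, adjusted p = 0.00102), and −0.44 (adjusted p = 0.0501) in a fit of the 4 MM1S groups alone. DUSP1 was at 80.8 and 93.5 CPM with TAK-981 and at 79.6 and 93.8 CPM with combo, groups that overlapped. Its interaction was −0.48 (SE 0.135, adjusted p = 0.0222). That call was lost without the first vehicle (−0.35, adjusted p = 0.141), second TAK (−0.37, adjusted p = 0.0727), second Dex (−0.40, adjusted p = 0.102) or first combo library (−0.37, adjusted p = 0.126) of MM1S, and in a fit of the 4 MM1S groups alone (−0.43, adjusted p = 0.143).

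TSC22D3 and RASD1 gave no significant interaction in MM1S. TSC22D3 was at 49.7 and 58.3 CPM with TAK-981 and at 632 and 662 CPM with combo, and its interaction was −0.13 with a 95% interval from −0.39 to 0.13. RASD1 went from 30 and 44 counts with TAK-981 to 129 and 234 with combo, and its interaction of 0.24 had an interval from −0.65 to 1.13. A change just under that seen for CXCR4 lies inside the interval of RASD1.

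When combo was compared directly with Dex in MM1S, all 8 genes were significantly higher, against 47.6% of all genes called and 22.2% called higher. The log2 fold changes were 1.35 for RASD1, 1.31 for CXCR4, 0.88 for FKBP5, 0.69 for ZBTB16 and 0.61 for KLF9. They were smaller for DUSP1 at 0.26, TSC22D3 at 0.25 and SGK1 at 0.16. The SGK1 call was lost with RLE scaling (adjusted p = 0.0581), without the filter (0.133), with DESeq2 (0.0959), in a fit of the compared groups alone (0.172), and with each MM1R library (adjusted p from 0.0516 to 0.0603), the first Dex library (0.12, adjusted p = 0.215) or either combo library of MM1S left out (0.19 without the first, adjusted p = 0.0617, and 0.13 without the second, adjusted p = 0.193). TSC22D3 and DUSP1 lost theirs without the first Dex library (0.15 and 0.18, both adjusted p = 0.185) or the second combo library of MM1S (0.22 and 0.14, adjusted p = 0.103 and 0.343). RASD1 was at 4.20 and 4.03 CPM with Dex and at 7.99 and 12.9 CPM with combo, the widest spread between libraries in this comparison.

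Against vehicle, combo raised 7 of the 8 genes in MM1S, against 60.3% of all genes called and 30.8% called higher. FKBP5 rose 44.6-fold, ZBTB16 48.9-fold, CXCR4 22.6-fold, TSC22D3 15.7-fold, RASD1 11.8-fold, KLF9 5.61-fold and DUSP1 1.67-fold. SGK1, at 82.5 and 86.0 CPM against 84.7 and 75.9 CPM, was not called (log2 fold change 0.07, edgeR adjusted p = 0.35). Per kilobase of the table's gene length, FKBP5 reached 288 CPM in combo-treated MM1S cells, the 81st highest of 14215 genes, from place 7517 with vehicle. CXCR4 reached 245 CPM per kilobase (place 104, from 5631) and TSC22D3 217 (place 129, from 4698). Together the 8 genes held 0.0289% to 0.0293% of the counts with vehicle and 0.462% to 0.476% with combo.

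The question for the resistant line was whether TAK-981 restored any response to Dex. In MM1R, combo against TAK-981 alone gave 0 calls among the 8 genes and 0% of all genes by edgeR, with 214 genes and none of the 8 at an unadjusted p under 0.05, and 0 by DESeq2. FKBP5 was at 61.2 and 54.9 CPM with TAK-981 and at 56.8 and 59.1 CPM with combo, a log2 fold change of 0.00 with a 95% interval from −0.14 to 0.14. CXCR4 was at 51.9 and 51.9 CPM and at 48.3 and 48.5 CPM, an interval from −0.25 to 0.04. TSC22D3 was at 156 and 163 CPM and at 151 and 150 CPM, an interval from −0.26 to 0.09. The intervals of these 3 genes exclude changes of the size seen in MM1S.

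The interaction of TAK-981 with Dex in MM1R was called for 0 of the 8 genes and 0% of all genes by edgeR, with 400 genes and none of the 8 at an unadjusted p under 0.05, and 0 by DESeq2. For FKBP5 it was −0.02 (95% interval −0.21 to 0.18) and for CXCR4 −0.02 (−0.23 to 0.18). The Dex change in the presence of TAK-981 differed between the lines for 7 of the 8 genes (with the GAPDH reference 7, all lower in MM1R). Of all genes, 23.0% were called, 1208 (8.50%) lower in MM1R and 2061 higher, again as signed differences. The signed Dex change was lower in MM1R for 6 of the 8, among them FKBP5 by −6.19 (SE 0.0985, adjusted p = 1.69e-18), CXCR4 by −4.41 (SE 0.0993) and RASD1 by −2.35 (SE 0.408, adjusted p = 0.000305). SGK1 differed by 0.62 in the other direction (0.02, adjusted p = 0.855, with the GAPDH reference). With TMM scaling its Dex change under TAK-981 was −0.58 in MM1S and 0.04 in MM1R. DUSP1 was the gene not called, at 0.17 (edgeR adjusted p = 0.385), and at −0.42 (adjusted p = 0.0198) with the GAPDH reference. For ZBTB16, with 1 to 3 counts in each TAK and combo library of MM1R, the call was lost without the first TAK library (adjusted p = 0.0614).

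TAK-981 by itself was also compared with vehicle. In MM1S 6 of the 8 were called (4 to 7 with 1 library left out), 4 higher and 2 lower (6 and 0 with the GAPDH reference), against 49.0% of all genes, and the median of all genes moved by 0.04. Over all 14215 genes 3586 were higher and 3374 lower. DUSP1 rose from 47.1 and 56.9 to 80.8 and 93.5 CPM (log2 fold change 0.75, SE 0.0960, edgeR adjusted p = 4.08e-06). SGK1 rose from 84.7 and 75.9 to 126 and 126 CPM (0.65, SE 0.0611, adjusted p = 6.25e-08). TSC22D3 rose by 0.39 (SE 0.0918) and RASD1 by 1.11 (SE 0.357, from 23 and 13 counts to 30 and 44). FKBP5 fell by 0.71 (SE 0.0681, adjusted p = 7.98e-08), or was 0.04 higher (adjusted p = 0.687) with the GAPDH reference, which shifted the median gene to 0.79. ZBTB16 fell by 1.20 (SE 0.334, adjusted p = 0.00598), and was at −0.45 (adjusted p = 0.241) with that reference.

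Of these calls, those of the genes with few counts rested on single libraries. ZBTB16 was at −0.86 (edgeR adjusted p = 0.111) without the second vehicle library of MM1S and at −0.90 (adjusted p = 0.067) without the first TAK library. RASD1 was at 0.82 without the second vehicle library (adjusted p = 0.128) and at 0.82 without the second TAK library (adjusted p = 0.134). TSC22D3 was at 0.28 (adjusted p = 0.0525) without the first vehicle library. CXCR4, at 0.18 (adjusted p = 0.0553), was not called, but was called without the first vehicle library (0.25, adjusted p = 0.0485) or the second Dex library (0.19, adjusted p = 0.0485). KLF9 was at 14.8 and 13.5 CPM with vehicle and 15.3 and 15.1 CPM with TAK-981 (0.10, edgeR adjusted p = 0.365).

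In MM1R TAK-981 also gave 6 calls among the 8, 5 higher and 1 lower (6 and 0 with the GAPDH reference), against 53.4% of all genes. Over all 14215 genes 3666 were higher and 3926 lower. FKBP5 fell from 93.0 and 96.4 to 61.2 and 54.9 CPM (−0.71, SE 0.0658, edgeR adjusted p = 6.98e-08), or was 0.04 higher (adjusted p = 0.721) with the GAPDH reference, which shifted the median gene to 0.74. TSC22D3 rose from 85.1 and 86.8 to 156 and 163 CPM (0.89, SE 0.0853, adjusted p = 9.86e-08). DUSP1 rose from 48.0 and 48.1 to 76.8 and 81.5 CPM (0.72, SE 0.0958, adjusted p = 5.94e-06). KLF9 rose from 7.15 and 7.71 to 11.5 and 11.9 CPM (0.65, SE 0.100). RASD1 rose from 12 and 12 counts to 27 and 35 (1.67, SE 0.404, adjusted p = 0.00184). CXCR4 rose by 0.27 (SE 0.0689, adjusted p = 0.00324), which was 0.19 (adjusted p = 0.0718) without the first vehicle library of MM1R. SGK1, at 75.6 and 74.5 CPM and 77.8 and 77.2 CPM, was not called (0.05, 95% interval −0.08 to 0.18).

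**Figure D3:**
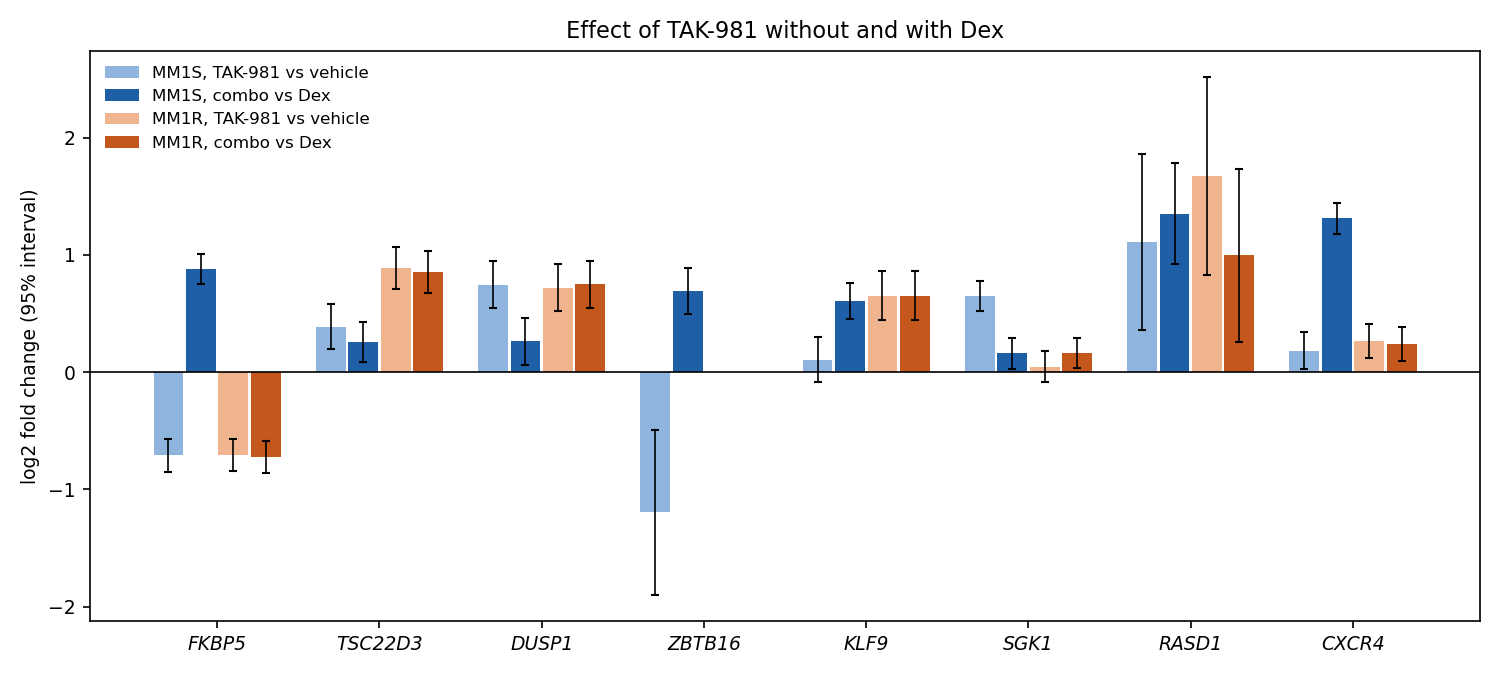
Log2 fold change of each gene with TAK-981, without Dex (light) and with Dex (dark), in MM1S (blue) and MM1R (orange); bars are edgeR estimates and lines their 95% intervals, and ZBTB16 in MM1R is not drawn because of its counts. FKBP5 lies at −0.71, 0.88, −0.71 and −0.72 in the order of the legend, while with the GAPDH count as the reference its 2 changes without Dex lie at 0.04 and 0.04.

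The TAK-981 effect without Dex differed between the lines for 3 of the 8 genes, 2 with a larger value in MM1R and 1 with a smaller one (0 and 1 with the GAPDH reference), against 4.16% of all genes. Over all genes 453 were called with a larger value in MM1R and 139 with a smaller one. SGK1 rose in MM1S and was not called in MM1R, a difference of −0.61 (SE 0.0869, edgeR adjusted p = 0.000652) that was called with each library left out. TSC22D3 rose more in MM1R by 0.50 (SE 0.125, adjusted p = 0.0284) and KLF9 by 0.55 (SE 0.135, adjusted p = 0.0277). Both of these calls were lost without either vehicle or either TAK library of MM1R (adjusted p from 0.0713 to 0.124), TSC22D3's also without the second vehicle library of MM1S (0.40, adjusted p = 0.151) and KLF9's without the first (0.48, adjusted p = 0.131). KLF9's was also lost with DESeq2 (adjusted p = 0.0523) and in a fit of the compared groups alone (0.0622), and both were lost with the GAPDH reference (0.0566 for TSC22D3 and 0.0721 for KLF9). For FKBP5 the difference was 0.00 (95% interval −0.19 to 0.20).

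In the presence of Dex, TAK-981 gave 7 calls in MM1R (combo against Dex), 6 higher and 1 lower (6 and 0 with the GAPDH reference), against 48.4% of all genes. Over all 14215 genes 3278 were higher and 3595 lower. FKBP5 was lower at 56.8 and 59.1 CPM against 92.5 and 98.9 CPM (−0.72, SE 0.0656, edgeR adjusted p = 5.09e-08), or at −0.01 (adjusted p = 0.908) with the GAPDH reference, which shifted the median gene to 0.71. In MM1S the same comparison raised FKBP5 by 0.88. TSC22D3 was higher in MM1R by 0.85, DUSP1 by 0.75, KLF9 by 0.65, RASD1 by 1.00, CXCR4 by 0.24 and SGK1 by 0.16. The calls of RASD1 (0.76, adjusted p = 0.161), CXCR4 (0.18, adjusted p = 0.0989) and SGK1 (0.14, adjusted p = 0.168) were lost without the first Dex library of MM1R, RASD1's without the second combo library (0.85, adjusted p = 0.136), and SGK1's without any one MM1R library other than the first TAK library (adjusted p from 0.05 to 0.168), with DESeq2 (0.0746), with library size only (0.0578) and without the filter (0.106). Combo against vehicle gave 5 calls in MM1R, 4 higher and 1 lower (6 and 0 with the GAPDH reference), against 51.5% of all genes (3532 higher and 3791 lower). FKBP5 was lower by 0.71 (0.04 higher with the GAPDH reference) and TSC22D3, DUSP1, KLF9 and RASD1 were higher. CXCR4, at 0.17 (edgeR adjusted p = 0.0505), was called without either TAK or either Dex library of MM1S, without either Dex library of MM1R (adjusted p from 0.0374 to 0.0487) or without the second vehicle library of MM1R (0.25, adjusted p = 0.027). Both comparisons use the combo libraries of MM1R, so their values stand side by side only.

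Ordering the 8 groups by level shows how differently the genes behaved. Combo-treated MM1S came first and Dex-treated MM1S second for FKBP5, TSC22D3, ZBTB16, KLF9, RASD1 and CXCR4, and these 2 groups differed significantly for each of the 6. FKBP5 was lowest in TAK-treated MM1S. TSC22D3 and CXCR4 were lowest in vehicle-treated MM1S, below all 4 MM1R groups, and their 2 lowest groups were TAK-treated and vehicle-treated MM1S, which differed for TSC22D3 (edgeR adjusted p = 0.0019) and not for CXCR4 (adjusted p = 0.0553). ZBTB16 and KLF9 were lower in all 4 MM1R groups than in any MM1S group. For DUSP1 only the step between Dex-treated MM1S and Dex-treated MM1R was significant among 7 neighbouring pairs (adjusted p = 0.000564), and that step separates the TAK, combo and MM1S Dex groups from the rest. For SGK1 only the step from TAK-treated MM1S to combo-treated MM1S was.

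The receptor's own transcript was read beside these values. NR3C1 in MM1S was at 283 and 277 CPM with vehicle, 357 and 318 with TAK-981, 257 and 239 with Dex and 286 and 278 with combo. TAK-981 raised it by a log2 fold change of 0.27 (SE 0.0702, edgeR adjusted p = 0.00373). With combo in MM1S it differed by 0.01 from vehicle (edgeR adjusted p = 0.911) and by −0.26 from TAK-981 alone (adjusted p = 0.00728). From Dex alone it differed by 0.18 (adjusted p = 0.0412). It was at 16.7 to 20.4 CPM in all 8 libraries of MM1R, where TAK-981 gave 0.11 (adjusted p = 0.308). Its part in the results of the 8 genes was not tested.

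The genes most like each of the 8 over the 16 libraries, by Pearson's r of log2 CPM among about 11575 genes with a mean log2 CPM of at least 1, are given as a description. The libraries fall into treatment groups, which all pairs share. SLC22A23 was nearest to TSC22D3 (r = 0.986) and second to CXCR4 (0.973), and rose with Dex in MM1S by 3.19. PFKFB2 was nearest to KLF9 (0.992) and rose by 2.06. TNIK was nearest to FKBP5 (0.975), then CREB3L2 (0.972), which rose by 1.24, and DDIT4 (0.971), which rose by 4.31. By rank (Spearman's rho) TNIK, CREB3L2 and DDIT4 stood at 0.682, 0.885 and 0.429. MEI1 was nearest to ZBTB16 (0.986), RCSD1 to CXCR4 (0.973) and VPS13D to RASD1 (0.974). The genes nearest to DUSP1 (RNF31, 0.967) and SGK1 (NDUFB5, 0.928) changed with Dex in MM1S by 0.36 and −0.18. Among the 8 genes themselves r was 0.958 for FKBP5 with CXCR4 and 0.961 for ZBTB16 with KLF9, and from −0.27 to 0.474 for SGK1 with the other genes.

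A wider list of 60 other glucocorticoid-induced genes had 43 members that passed the filter. In MM1S Dex raised 27 of the 43 and lowered 2 (38 and 0 with the GAPDH reference), where 42.3% of all genes were called and 20.8% were higher, with a median log2 fold change of 0.43 against 0.01 for all genes. In MM1R Dex called 0 of the 43 in either direction. The 4 with the smallest adjusted p in MM1S were ZFP36L2, which binds and destabilises mRNAs (1.57), the transcriptional repressor gene BCL6 (4.03), PIK3IP1 (1.93) and the arrestin-family gene TXNIP (1.51). TAK-981 alone raised 21 of the 43 and lowered 4 in MM1S, and raised 20 and lowered 4 in MM1R. Of all genes, 49.0% and 53.4% were called in either direction, shares near those of the list for both directions together. Over all 14215 genes TAK-981 raised 3586 and lowered 3374 in MM1S, and raised 3666 and lowered 3926 in MM1R. The calls of the list thus leaned more to higher values than those it gave over all genes. The list was chosen with earlier results of these data known, so this lean is a description only. With the GAPDH reference TAK-981 raised 37 of the list in MM1S and 38 in MM1R and lowered none in either. TXNIP was among the most clearly raised in both lines, with a log2 fold change of 1.79 in MM1S (edgeR adjusted p = 5.44e-13) and 1.64 in MM1R (edgeR adjusted p = 1.13e-12).

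The interaction of TAK-981 with Dex in MM1S was not called for 24 of the 43. Of the other 19, 15 had a significantly lower Dex log2 fold change under TAK-981 and 4 a higher one (14 and 1 with the GAPDH reference). The median interaction of the list was −0.11, against −0.03 for all genes. Over all genes 14.9% were called, and these also leaned to a lower value, with 1348 lower and 777 higher. A lower value can be a weaker rise or a stronger fall. BCL6 averaged 1.83 CPM with vehicle, 4.68 with TAK-981, 30.1 with Dex and 15.0 with combo, an interaction of −2.34 (SE 0.234, edgeR adjusted p = 2.66e-06). TXNIP averaged 670 CPM with vehicle, 2319 with TAK-981, 1912 with Dex and 3199 with combo, an interaction of −1.05 (SE 0.0932, adjusted p = 7.04e-07). PIK3IP1 gave −0.70 (SE 0.108), whereas ZFP36L2 gave 0.29 (SE 0.0741, adjusted p = 0.0135). The 15 were 9 without the first vehicle, second Dex or first combo library of MM1S and 7 in a fit of the 4 MM1S groups alone. The 4 were 1 without the second vehicle library and 2 without the second combo library.

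**Figure D4:**
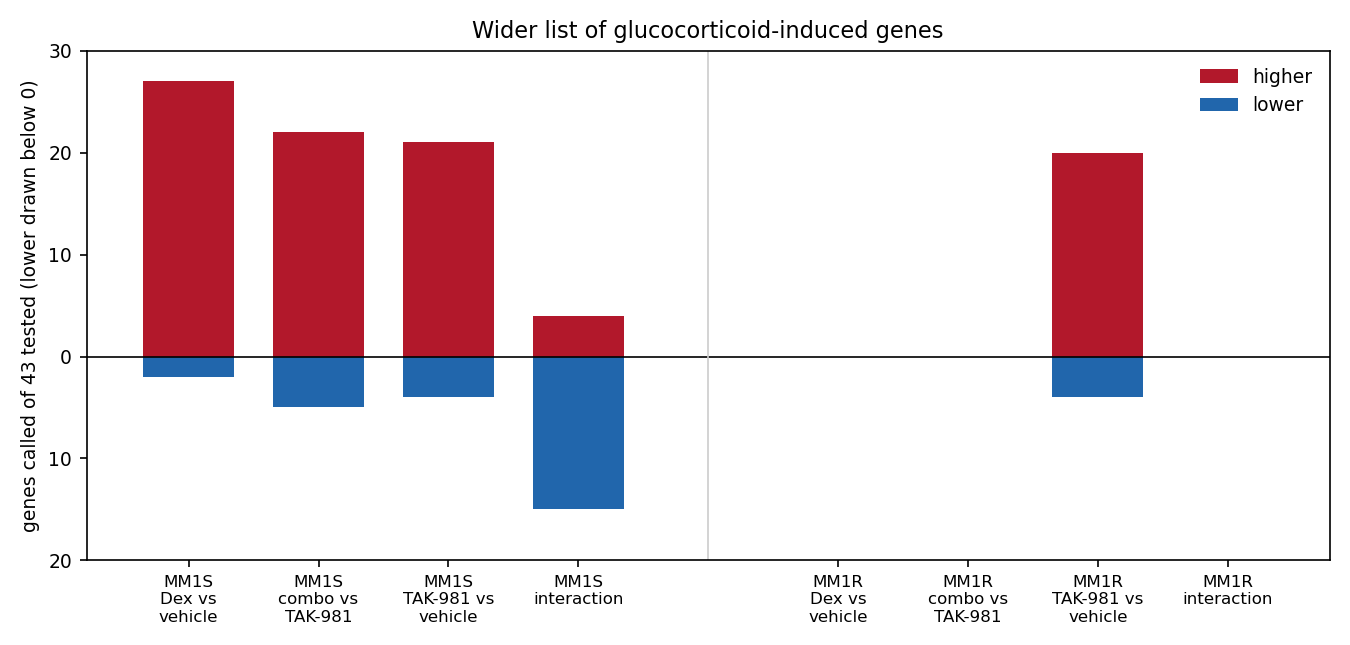
Number of the 43 tested genes of the wider list called higher (red, above 0) or lower (blue, below 0) at an adjusted p under 0.05, for Dex, for Dex in the presence of TAK-981, for TAK-981 and for their interaction, in MM1S (left) and MM1R (right). Dex raised 27 in MM1S (20.8% of all genes were higher) and none in MM1R, while TAK-981 raised 21 and 20, or 37 and 38 with the GAPDH count as the reference, where 49.0% and 53.4% of all genes were called in either direction. Over all 14215 genes TAK-981 raised 3586 in MM1S and 3666 in MM1R.

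The receptor and its cofactors (29 genes, all tested) moved in both directions. In MM1S Dex raised 8 and lowered 2 (25 and 1 with the GAPDH reference), against 42.3% of all genes called, of which the mineralocorticoid receptor gene NR3C2 had the smallest adjusted p (−1.07, SE 0.107). CREBBP (0.36) and NRIP1 (0.50), which encode coregulators, were among those raised. TAK-981 lowered 10 and raised 12 in MM1S and lowered 10 and raised 8 in MM1R, against 49.0% and 53.4% of all genes called, whereas with the GAPDH reference it lowered 0 and raised 24 in MM1S and lowered 1 and raised 24 in MM1R. The clearest falls in MM1S were the chaperone HSP90AA1 (−0.72), the co-chaperones PTGES3 (−0.50) and FKBP4 (−0.69), and HSP90AB1 (−0.46), all of which were between 0.04 and 0.29 with the GAPDH reference. In MM1R they were HSP90AA1 (−0.98), STIP1 (−0.62), HSP90AB1 (−0.57) and FKBP4 (−0.76), and with that reference STIP1 was at 0.12 and HSP90AB1 at 0.17. FKBP4, which competes with the FKBP5 protein for HSP90, thus fell with TAK-981 as FKBP5 did, and with the GAPDH reference it was at 0.06 in MM1S and −0.02 in MM1R.

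Of 50 close paralogues of the 8 genes, 39 were tested, of which Dex in MM1S raised 10 and lowered 7 (32 and 2 with the GAPDH reference), a share near the 42.3% of all genes called. The clearest were KLF7 (0.80, SE 0.0648), FKBP11 (−0.93, SE 0.0754), the chemokine receptor gene CXCR3 (−1.30, SE 0.105) and DUSP5 (0.53, SE 0.0533). DUSP4 fell with TAK-981 in MM1S (−0.68, but 0.07 with the GAPDH reference) and in MM1R (−1.26), while DUSP1 rose in both. KLF7, like KLF9, rose with TAK-981 in MM1R (1.04), and it also rose in MM1S (0.61). CXCR5 rose in MM1R by 1.97 (SE 0.106, edgeR adjusted p = 5.48e-11). DUSP10, which is also on the wider list, rose with TAK-981 by 0.99 in MM1S and 1.40 in MM1R. Of the ligands and partners of the 8 genes, 34 of 35 were tested, and CXCL12, the ligand of CXCR4, did not pass the filter. Dex in MM1S raised 4 and lowered 9 of them (29 and 3 with the GAPDH reference), also near the 42.3% of all genes called. Those lowered included the SGK1 substrates NEDD4L (−1.04) and NDRG1 (−1.23) and MIF (−0.60, or 0.09 with the GAPDH reference), a cytokine that can also bind CXCR4.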

How the data were processed

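Total RNA from MM1S and MM1R cells, extracted with the miRNeasy kit, was sequenced by the authors, who deposited a table of one raw read count per gene and library, without normalization. The submitters' processing notes name bcl2fastq 2.18.0.12, STAR 2.6.0, HTSeq 0.6.0, edgeR 3.28.1 and the build hg19. Whether counting used strand is not given in the sources used here. Every column was matched to its sample by its label.

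Counts were filtered with edgeR's filterByExpr (minimum count 10), scaled with TMM and fitted with 1 term per group (edgeR 4.0.16, robust quasi-likelihood, R 4.3.3). Differences were tested with edgeR's F test over 16 contrasts, with Benjamini-Hochberg adjustment and a threshold of 0.05. Fold changes are log2, and log2 CPM used a prior count of 2. The code was tested on simulated counts. A level of 3 counts per library was taken as the floor. The 8 genes and the 4 lists were chosen with earlier results of these data known. All 8 genes are named, with NR3C1, the genes most like each (up to 3), and from each list at most 4 genes of lowest adjusted p for Dex in MM1S, and for TAK-981 in either line, except 1 gene that is not reported here. Intervals are at 95%. Between genes, levels were compared only per kilobase of the table's gene length.

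Alternatives were RLE scaling, library size only, the GAPDH count as the reference, no filter, a term for the replicate number, DESeq2 1.42.0, a fit of the compared groups alone, a minimum change of 1 in absolute log2 value, and omission of each library in turn. Levels were also ordered by log2 CPM and by library size only.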

Additional observations from a re-analysis of the deposited data

Results flagged for a closer look

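Each value here was flagged because the effect of one treatment differed significantly between 2 conditions, by edgeR's test of the difference itself. No group was searched for outlying libraries, since each held 2.

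The Dex effect in MM1R minus that in MM1S was −4.58 for FKBP5, −3.76 for TSC22D3, −4.08 for ZBTB16, −1.86 for KLF9 and −3.26 for CXCR4. In the presence of TAK-981 it was −6.19 for FKBP5, −3.66 for TSC22D3, −7.32 for ZBTB16, −2.37 for KLF9, 0.62 for SGK1, −2.35 for RASD1 and −4.41 for CXCR4. The ZBTB16 values rest on 1 to 4 counts per library in MM1R and depend on how the fit treats such counts. As counts, ZBTB16 held 1488 in the 2 Dex libraries of MM1S and 7 in those of MM1R, and 2112 and 3 in the combo libraries.

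The TAK-981 effect in MM1R minus that in MM1S was 0.50 for TSC22D3, 0.55 for KLF9 and −0.61 for SGK1. The Dex effect in MM1S with TAK-981 minus that without was 1.59 for FKBP5, −0.48 for DUSP1, 1.89 for ZBTB16, 0.50 for KLF9, −0.49 for SGK1 and 1.13 for CXCR4.

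NR3C1 was at 16.7 to 20.4 CPM in MM1R and at 239 to 357 CPM in MM1S. Its part in these differences was not tested.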

How the results depend on the processing

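Of 1024 values of the 8 genes under the alternatives that kept all libraries, 940 kept their direction and side of the threshold, 56 lost the call, 20 gained it and 8 reversed. The 8 came with the GAPDH count as the reference, where the cause was not tested beyond the shift of the median of all genes (0.71 for Dex, 0.79 for TAK-981, 0.58 for combo against TAK-981 in MM1S, and 0.74 for TAK-981 and 0.75 for combo in MM1R, against vehicle unless named). They were SGK1 with Dex in MM1S (0.61), DUSP1 (0.60) and SGK1 (0.0204) for combo against TAK-981 in MM1S, FKBP5 with TAK-981 in MM1S (0.0409) and MM1R (0.0357), FKBP5 for combo against vehicle in MM1R (0.0403), SGK1 for the line difference in Dex effect (−0.65) and DUSP1 for that in the presence of TAK-981 (−0.42). GAPDH itself was not steady after TMM. In MM1S it was at 1712 and 1616 CPM with vehicle, 931 and 1044 with TAK-981, 979 and 1075 with Dex and 627 and 671 with combo. In MM1R it was at 1977 and 2013 CPM with vehicle, 1153 and 1239 with TAK-981, 1845 and 2049 with Dex and 1188 and 1186 with combo. The number of genes called among the 8 went with the GAPDH reference from 5 to 8 for the line difference in Dex effect and from 3 to 1 for that in TAK-981 effect. With a minimum absolute log2 change of 1 it went, by construction, to 2 for TAK-981 in MM1S, 2 for combo against Dex in MM1S, 3 for the interaction in MM1S, 1 for TAK-981 in MM1R, 0 for combo against Dex in MM1R, 1 for combo against vehicle in MM1R, 2 between vehicle-treated lines and 0 for the line difference in TAK-981 effect.

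With 1 library left out, where the remaining library of that group is assumed to vary like the others, no value reversed. The number called ran from 5 to 8 for combo against Dex in MM1S, from 4 to 7 for the same in MM1R, from 4 to 7 for TAK-981 in MM1S, from 4 to 6 for the interaction in MM1S, from 4 to 7 for the line difference in Dex effect and from 1 to 3 for that in TAK-981 effect. Dex in MM1S stayed at 7 calls and Dex in MM1R at 0.

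Replicate numbers were not taken as pairs of libraries, because the correlations of deviations were not all over 0.1. They ran from 0.0162 to 0.263 in MM1S, all above 0 and 2 of 6 over 0.1, and from −0.0134 to 0.0821 in MM1R. Whether libraries of 1 replicate number shared a batch in MM1S was not tested. With the replicate block no call of the 8 genes was lost and 4 were gained, CXCR4 with TAK-981 in MM1S (0.18, adjusted p = 0.0333) and with combo in MM1R (0.17, adjusted p = 0.0193), and DUSP1 (−0.34) and RASD1 (−1.44) for the line difference in Dex effect, while all genes called for the interaction in MM1S went from 2125 to 3579 and for the line difference in TAK-981 effect from 592 to 2061. In a fit of the compared groups alone the interaction in MM1S was called for 734 genes and combo against TAK-981 in MM1R for 5 in place of 0. Without the filter, 30 genes were called for Dex, 9 for combo against TAK-981 and 19 for the interaction in MM1R (0 with it), and 1313 for the line difference in TAK-981 effect. With the GAPDH reference, 10823 to 13089 genes were called for the MM1S comparisons of 2 groups, 11532 to 11855 for the MM1R ones with calls, 9185 and 8865 for the line differences in Dex effect without and with TAK-981, and 161 for that in TAK-981 effect. The order of levels was the same by log2 CPM for all 8 genes, and by library size only for all but DUSP1 and SGK1. Depth limits ZBTB16 in MM1R (1 to 4 counts) and RASD1 (12 to 234 counts).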
